A study of Mus musculus with 58 samples.

Results

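The genes described here encode the proteins of the cytosolic ribosome. A row of the count table was taken as a member when its symbol was Rps or Rpl with a number and at most a short suffix (such as Rps27, Rps27l or Rpl7a), or was Rpsa, Rplp0, Rplp1 or Rplp2. Kinases of the Rps6k family and pseudogene symbols were left out. The rule gave 85 members of 24028 rows, 33 of the small and 52 of the large ribosomal subunit. No measured value entered the choice. Genes such as Fau, Rack1 and Rpl36al, which also encode ribosomal or ribosome-bound proteins, fall outside the symbol rule and are given with the related lists. Coordinates are those of the RefSeq annotation on GRCm38.p6.

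RNA was sequenced in 58 libraries of mouse CD4+ T helper cells, which fall into 15 groups: 3 genotypes, each in 5 states. KO cells (T1792Δ/Δ, CD4cre.miR-17~92 lox/lox) have the miR-17~92 cluster of microRNA genes deleted by Cre, which is driven by Cd4 regulatory sequence. TG cells (T1792tg/tg, CD4cre.Rosa26 loxSTOPlox CAG-miR-17~92Tg) carry the same Cre and gain transgenic expression of the cluster from the CAG promoter once their stop cassette is cut out. WT cells came from wild-type mice and carry no Cre, so that Cre differs between WT and both altered genotypes. Cre under Cd4 control acts from the thymus on, so the alteration preceded isolation. Naive CD4+ cells were purified with an isolation kit from lymph nodes and spleens, pooled over 10 male and female animals. The naive state is uncultured cells. The 4 stimulated states are cells cultured for 24 h or 48 h with IL-2 (50 U/ml) on a coat of anti-CD28 (0.2 µg/ml) plus anti-CD3, of which the very weak stimulus had 0.25 µg/ml and the weak stimulus 0.5 µg/ml. No group was cultured without the antibodies. Between stimulated and naive cells, culture with IL-2 and the antibody stimulus therefore cannot be told apart. There were 4 libraries in a group, but 3 in KO naive and in WT naive cells. The labels do not say that replicates came from separate pools of mice or separate cultures, so that the p-values measure the spread between these libraries, which may be technical.

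Each ribosome holds 1 copy of nearly every one of these proteins, with the P stalk proteins Rplp1 and Rplp2 as the best known exception, and cells make them in step with ribosomal RNA. Their mRNAs are short and very abundant, and begin with a pyrimidine tract (the 5′ terminal oligopyrimidine, or TOP, motif) through which the kinase complex mTORC1 and the RNA-binding protein Larp1 set how strongly they are translated. Stimulated T cells enlarge and expand their translation machinery before they divide. Several ribosomal proteins have a close paralogue, among them Rps27 and Rps27l, Rpl22 and Rpl22l1, Rpl7 and Rpl7l1, Rpl3 and the muscle form Rpl3l, Rpl10 and the testis form Rpl10l, and Rpl39 and Rpl39l.

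The promoters of 64 of the 85 members were present in the RefSeq promoter table (GRCm38.p6, the patch release of the mm10 build that the authors used). Of these windows, which run from 250 bases before to 50 bases after the start, 35 (54.7%) held CCGGAA on either strand, against 16.7% of the windows of all 27025 genes in the table. CCGGAA holds GGAA, the core of the sites bound by ETS-family factors such as Gabpa. The pyrimidine run CTTTCC lay on the gene's own strand in 25 members (39.1%), against 16.0% of all genes. The 2 motifs do not contain one another, and a match describes the letters only. The 150 bases before the listed start are shown for the members that separated stimulated from naive libraries most clearly and whose promoter was in the table, with CCGGAA or its reverse complement TTCCGG in capitals. For Rps27l, 1 of its 2 listed starts is shown.
Rps27l, chr9:66945936-66946085, plus strand: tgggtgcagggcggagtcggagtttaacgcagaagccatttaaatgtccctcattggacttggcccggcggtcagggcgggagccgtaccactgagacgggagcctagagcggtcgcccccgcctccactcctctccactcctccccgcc
Rpl7l1, chr17:46782657-46782806, minus strand: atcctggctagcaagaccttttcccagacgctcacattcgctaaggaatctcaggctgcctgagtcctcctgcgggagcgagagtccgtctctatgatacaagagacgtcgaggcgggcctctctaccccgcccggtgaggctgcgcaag
Rps2, chr17:24719913-24720062, plus strand: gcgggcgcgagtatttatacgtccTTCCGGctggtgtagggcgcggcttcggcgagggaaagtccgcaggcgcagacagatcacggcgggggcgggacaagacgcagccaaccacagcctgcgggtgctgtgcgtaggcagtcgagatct
Rps27, chr3:90213649-90213798, minus strand: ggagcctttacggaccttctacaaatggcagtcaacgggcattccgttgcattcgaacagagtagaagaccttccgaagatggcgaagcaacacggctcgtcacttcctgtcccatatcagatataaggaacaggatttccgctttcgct
Rps7, chr12:28635954-28636103, minus strand: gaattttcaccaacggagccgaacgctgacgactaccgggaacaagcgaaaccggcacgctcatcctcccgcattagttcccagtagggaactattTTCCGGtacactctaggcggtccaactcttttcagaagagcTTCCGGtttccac
Rps27l, Rpl7l1 and Rps2, which were higher in stimulated cells, and Rps27 and Rps7, which were lower, did not split by this motif. CCGGAA occurs 1 time in the Rps2 and 2 times in the Rps7 stretch, and not in the other 3. GGAA without CC before it was not counted, so a stretch without CCGGAA may still hold the ETS core.

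Library totals ran from 19197383 to 20810338 exonic counts and from 2739380 to 9106298 intronic counts, and levels are given as CPM (counts scaled to a common exonic total per library) unless stated. No spike-in was used here, so every level is a share of a library. RNA per cell was not measured, and in these bulk samples fewer cells of a type and less RNA per cell cannot be told apart. Stimulated and naive libraries also differed in markers of other cells. The summed level of 8 T cell markers was 2333 to 3767 CPM in stimulated and 5350 to 6903 CPM in naive libraries. The sum of 2 CD8 markers was 6.39 to 25.4 CPM in stimulated and 29.9 to 63.0 CPM in naive libraries, that of 6 NK cell markers 4.03 to 57.5 and 81.8 to 161 CPM. The sum of 8 B cell markers was 13.9 to 86.4 CPM in stimulated and 143 to 424 CPM in naive libraries, of 11 myeloid markers 2.43 to 12.8 and 129.7 to 364 CPM, of 4 measured erythroid markers 0.155 to 10.6 and 92.2 to 525 CPM, and of 6 heat shock and dissociation genes 82.1 to 268 and 1960 to 9264 CPM. Each of the 8 T cell markers, Cd4 and Cd3e among them, was detected in all 15 groups, as was every B cell, NK cell and CD8 marker. Of the 11 myeloid markers 1 to 5 were at 0 throughout each stimulated group, most often C1qa, C1qb and C1qc, and Alas2 of the erythroid markers was at 0 in 5 stimulated groups. The part of these differences in the results on stimulation was not tested. The row of Mir17hg, the host transcript of the cluster, had medians of 126 CPM in KO, 48.8 CPM in TG and 41.0 CPM in WT stimulated cells, and of 49.4, 85.3 and 30.1 CPM in KO, TG and WT naive cells. It starts at position 115044390 of chromosome 14, downstream of the hairpins of Mir17, Mir18, Mir19a and Mir20a, so it does not check the deletion.

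Ribosomal protein genes took between 4.39% and 8.27% of the exonic counts of a library. In naive cells the share was 6.73 ± 1.62% in KO (SD, n = 3), 5.61 ± 0.72% in TG (n = 4) and 5.80 ± 0.69% in WT cells (n = 3). At 24 h after the very weak stimulus it was 5.34 ± 0.27% in KO, 4.85 ± 0.35% in TG and 5.38 ± 0.38% in WT cells, and after the weak stimulus 5.59 ± 0.63%, 4.99 ± 0.38% and 5.02 ± 0.41% (n = 4 each). At 48 h the shares were 5.68 ± 1.17% in KO, 5.12 ± 0.51% in TG and 5.83 ± 0.58% in WT cells after the very weak stimulus, and 5.56 ± 0.31%, 5.35 ± 0.41% and 5.71 ± 0.35% after the weak stimulus. Stimulated libraries (4.39% to 7.30%) overlapped widely with naive ones (4.88% to 8.27%).

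What differed between the states without overlap was the balance of the subunits. Small-subunit genes had 0.610 to 0.670 times the counts of large-subunit genes in the 48 stimulated libraries (median 0.646), and 0.758 to 0.795 times in the 10 naive libraries (median 0.779). At 48 h the ratio was 0.610 to 0.635 in the 8 TG libraries, 0.640 to 0.670 in the 8 KO libraries and 0.626 to 0.664 in the 8 WT libraries. KO and TG did not overlap there, while each overlapped WT. The order was the opposite in naive cells, also without overlap between KO and TG. There the ratio was 0.758 to 0.776 in the 3 KO, 0.780 to 0.795 in the 4 TG and 0.761 to 0.783 in the 3 WT libraries. At 24 h KO (0.6501 to 0.668) and TG (0.634 to 0.6504) overlapped by a narrow margin.

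**Figure D1:**
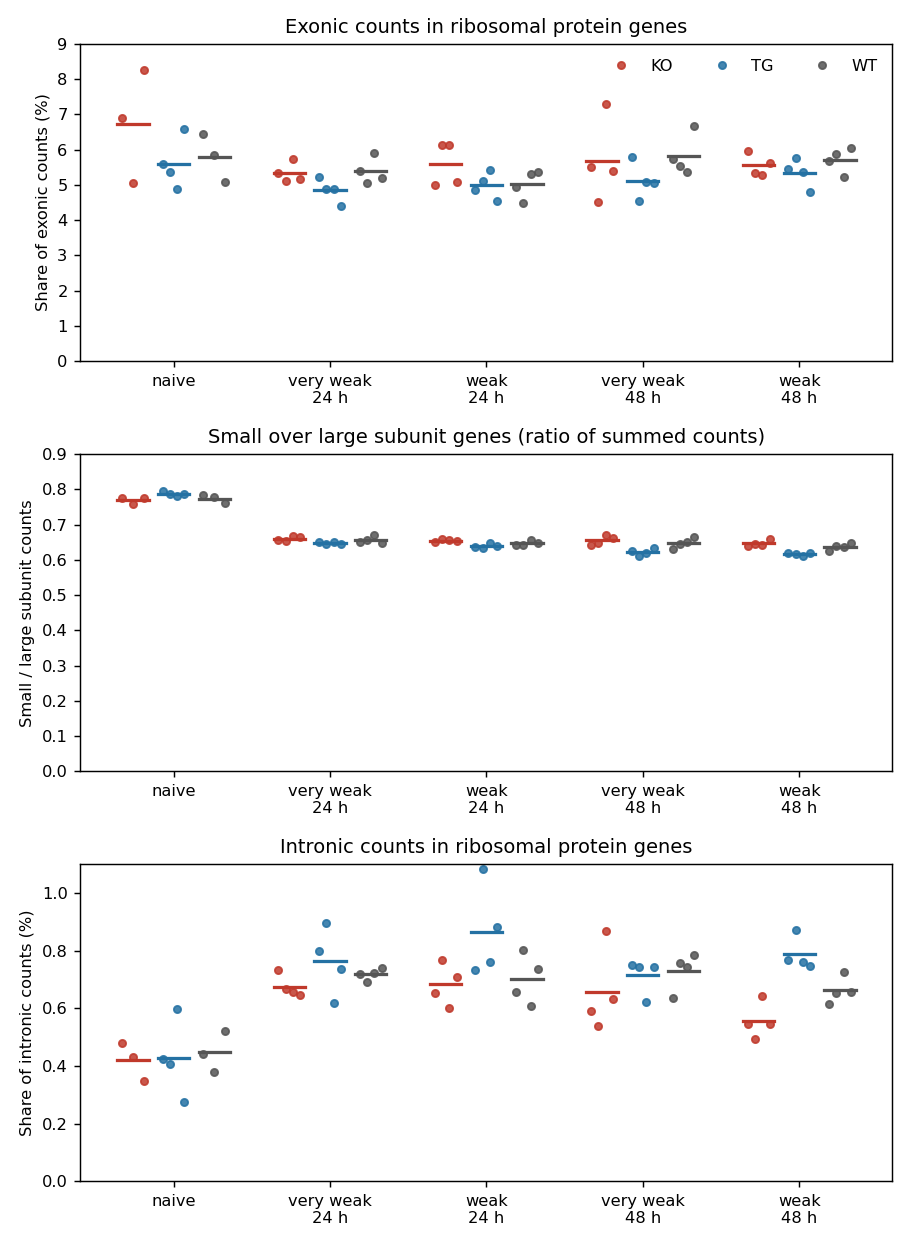
Share of exonic counts in ribosomal protein genes (top, %), ratio of small- to large-subunit counts (middle) and share of intronic counts in the same genes (bottom, %), for each library (points) and as group means (lines), by state and genotype. The exonic share overlaps between naive and stimulated libraries, the subunit ratio does not (0.610 to 0.670 stimulated, 0.758 to 0.795 naive), and the intronic share is 0.496% to 1.08% in stimulated and 0.275% to 0.599% in naive libraries.

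Within a group, the members moved together from library to library. In 39 of the 58 libraries at least 70 of the 83 members that passed the low-count filter lay on the same side of their group mean. The 3 KO naive libraries had the largest SD of the share of all groups. Their replicate 4 had 81 of 83 members above the mean (median deviation 0.35 on the log2 scale) with 8.27% of counts in members, and replicate 2 had 81 below (median -0.45) with 5.04%. In KO cells 48 h after the very weak stimulus, replicate 3 had all 83 members above its group mean (median 0.41) with a share of 7.30%, against 4.5% to 5.52% in the other 3 libraries. The median deviation of all tested genes stayed between -0.0095 and 0.025 in all 58 libraries. The share of counts that were intronic was 22.6% in KO naive replicate 4 and 28.7% in replicate 2, and 12.4% in the replicate 3 just named against 15.7% to 15.9% beside it. The part of these differences in the member levels was not tested.

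Between naive and stimulated cells, single ribosomal protein genes moved in opposite directions and the whole set little. In KO cells, edgeR's quasi-likelihood test called 8 of 83 members higher and 45 lower in the 16 stimulated libraries than in the 3 naive ones at a Benjamini-Hochberg adjusted p under 0.05, where 38.3% of all 13709 tested genes were called higher and 40.6% lower. In TG cells 16 were higher and 36 lower (40.1% and 43.2% of all genes), and in WT cells 18 were higher and 27 lower (39.3% and 42%). In either direction the test called 78.9%, 83.3% and 81.3% of all genes in KO, TG and WT cells. The median log2 change was -0.30 in KO, -0.14 in TG and -0.10 in WT cells, with interquartile ranges of 0.57, 0.55 and 0.60, against 1.84, 2.02 and 2.01 for all genes. These medians moved with single naive libraries. The KO median was -0.09 without KO naive replicate 4 and -0.53 without replicate 2, the TG median -0.07 without TG naive replicate 4 and -0.21 without replicate 3, and the WT median -0.014 without WT naive replicate 1 and -0.22 without replicate 4, so that the order of the genotypes depended on which library was left out. Of the called members, 7 in KO, 5 in TG and 5 in WT cells changed at least 2-fold. All 27 members that fell in WT cells also fell in KO and TG cells, which is 60% of the KO and 75% of the TG list, and 7 rose in all 3 genotypes (Rps27l, Rpl7l1, Rps2, Rpl41, Rpl15, Rps12 and Rps4l), which is 87.5% of the KO, 43.8% of the TG and 38.9% of the WT list. Of all tested genes, 36.1% fell and 33.5% rose in all 3 genotypes. The genes that fell in all 3 were 89% of all genes called lower in KO, 83.6% in TG and 86% in WT cells, and those that rose were 87.6%, 83.5% and 85.4% of all genes called higher. The split of the calls changed with single naive libraries. In KO cells it was 14 higher and 25 lower without KO naive replicate 4, and 5 higher and 63 lower without replicate 2. In WT cells it was 8 higher and 33 lower without WT naive replicate 4, 12 higher and 27 lower without replicate 2, and 20 higher and 23 lower without replicate 1.

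The falls lay more in the small subunit. Of 33 small-subunit genes, 22 fell and 4 rose in KO, 21 fell and 5 rose in TG, and 16 fell and 6 rose in WT cells, with median log2 changes of -0.41 in KO, -0.34 in TG and -0.22 in WT cells. Of 50 large-subunit genes, 23 fell and 4 rose in KO, 15 fell and 11 rose in TG, and 11 fell and 12 rose in WT cells, with medians of -0.26 in KO, -0.05 in TG and -0.02 in WT cells. Over all tested genes, 40.6% fell and 38.3% rose in KO, 43.2% fell and 40.1% rose in TG, and 42% fell and 39.3% rose in WT cells. Across genotypes, 6 members had no overlap between the 48 stimulated and the 10 naive libraries: 3 lay higher (Rps27l, Rpl7l1 and Rps2) and 3 lay lower, Rps27 and Rps7 among them. Of all tested genes, 19.3% were separated in this way upwards and 19.1% downwards.

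**Figure D2:**
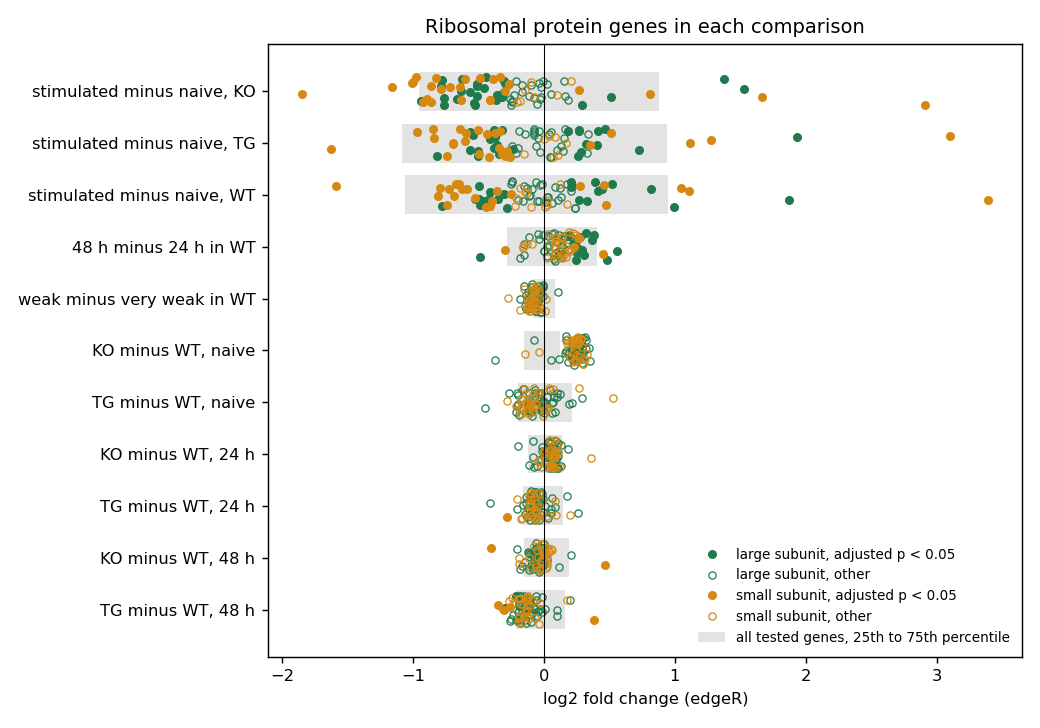
Log2 fold change of the 83 tested ribosomal protein genes in 11 comparisons (points; filled at adjusted p < 0.05), by subunit, over the 25th to 75th percentile of all 13709 tested genes (grey bars). On stimulation most members lie inside the bar, and Rps27l (log2 3.39 in WT) and Rps27 (log2 -1.59 in WT) lie far outside it on opposite sides.

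Rps27 (chr3:90212667-90213648) and Rps27l (chr9:66944624-66949522), protein-coding paralogues that take the same place at the small subunit, changed in opposite directions. Rps27 had 138 to 253 CPM (median 177) in stimulated and 637, 428 and 745 CPM in naive KO libraries, and 121 to 191 CPM (median 146) in stimulated and 502, 441, 381 and 523 CPM in naive TG libraries. It had a lowest value of 120.1, a median of 164 and a highest value of 219 CPM in the 16 stimulated WT libraries, against 622, 481 and 408 CPM in the 3 naive ones. Every stimulated library lay below every naive library, and the log2 change was -1.85 ± 0.12 (SE, adjusted p = 1e-18) in KO, -1.63 ± 0.11 (SE, adjusted p = 3e-18) in TG and -1.59 ± 0.13 (SE, adjusted p = 3.4e-16) in WT cells by edgeR. Rps27l, which in human cells is known as a target of p53, had 84.5 to 178 CPM (median 131) in stimulated and 18.3, 12.1 and 17.9 CPM in naive KO libraries, and 121 to 242 CPM (median 159.9) in stimulated and 18.5, 20.4, 16.1 and 24.9 CPM in naive TG libraries. It had a lowest value of 116, a median of 135 and a highest value of 185 CPM in stimulated WT libraries, against 13.9, 14.3 and 12.9 CPM in naive ones. Its log2 change was 2.91 ± 0.19 (SE, adjusted p = 1.4e-19) in KO, 3.10 ± 0.16 (SE, adjusted p = 4.7e-23) in TG and 3.39 ± 0.19 (SE, adjusted p = 1.3e-21) in WT cells, the largest of any member in each genotype. Per kilobase of exon, Rps27l stood at 116 ± 12.6% of Rps27 in WT cells 24 h after the weak stimulus (SD, n = 4), against 3.46 ± 0.606% in naive WT cells (n = 3). The pair thus stood near parity in stimulated WT cells, with the 4 stimulated WT groups between 101% and 116%.

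The other falls were shallower. Rps7 (chr12:28630847-28635953), a small-subunit protein that also binds Mdm2, had a lowest value of 221, a median of 254 and a highest value of 355 CPM in stimulated WT libraries, against 499.5, 462 and 382 CPM in naive ones, a log2 change of -0.79 ± 0.12 (SE, adjusted p = 3.3e-08). Rps15a fell by a similar amount, with 371 to 601 CPM (median 449.5) in stimulated and 928, 823 and 633 CPM in naive WT libraries (log2 -0.81 ± 0.11 SE, adjusted p = 1.2e-08). Rpl17, beside the peptide exit tunnel of the large subunit, changed by -0.78 ± 0.11 (SE, adjusted p = 2.2e-08) in WT cells. No stimulated WT library reached the lowest naive one for any of these 3 genes. In KO cells Rps21 (log2 -1.16 ± 0.13 SE, adjusted p = 3e-11) and Rps16 (log2 -1.0 ± 0.12 SE, adjusted p = 7.5e-11) were among the 4 largest falls. Rps21 had 186 to 342 CPM (median 241) in stimulated and 598, 410.1 and 593 CPM in naive KO libraries. The groups did not overlap, but the naive KO libraries differed among themselves in all members, as given above.

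Among the rises, Rpl7l1 and Rps2 followed Rps27l. Rpl7l1 (chr17:46773907-46782656), the paralogue of Rpl7 that in yeast corresponds to a ribosome assembly protein, had 163 to 342 CPM (median 240.3) in stimulated and 76.4, 69.7 and 93.3 CPM in naive KO libraries (log2 1.53 ± 0.12 SE, adjusted p = 5.2e-16), and 229 to 350.1 CPM (median 287) in stimulated and 68.3, 82.9, 60.0 and 86.3 CPM in naive TG libraries (log2 1.93 ± 0.11 SE, adjusted p = 1.2e-21). Rpl7l1 had a lowest value of 191, a median of 263 and a highest value of 349.6 CPM in stimulated WT libraries, against 72.4, 66.5 and 72.3 CPM in naive ones (log2 1.87 ± 0.13 SE, adjusted p = 7.3e-19). Rpl7 itself had 1052 to 1558 CPM (median 1262) in stimulated and 1168, 1110.2 and 913 CPM in naive WT libraries, with a log2 change of 0.24 ± 0.12 (SE, adjusted p = 0.0621). Per kilobase, Rpl7l1 stood at 8.20 ± 1.05% of Rpl7 24 h after the weak stimulus and at 1.99 ± 0.315% in naive WT cells, so that it remained the minor partner throughout. Every stimulated library lay above every naive one in all 3 genotypes. Rps2 (chr17:24718121-24721927), at the mRNA entry side of the small subunit and known to be paired with the chaperone Pdcd2, had 382 to 654 CPM (median 448) in stimulated and 257, 211 and 293 CPM in naive KO libraries (log2 0.81 ± 0.12 SE, adjusted p = 1.8e-08), and 384 to 613 CPM (median 466) in stimulated and 201, 208, 211 and 262 CPM in naive TG libraries (log2 1.12 ± 0.10 SE, adjusted p = 8.3e-14). Rps2 had a lowest value of 428, a median of 473 and a highest value of 527 CPM in stimulated WT libraries, against 239, 223 and 227 CPM in naive ones (log2 1.05 ± 0.12 SE, adjusted p = 3.3e-11). Rpl41, the smallest ribosomal protein, had 894 to 1489.7 CPM (median 1222) in stimulated and 789, 714 and 584 CPM in naive WT libraries (log2 0.82 ± 0.14 SE, adjusted p = 1.2e-06), and the groups did not overlap. Rpl41 rose in TG cells too (log2 0.72 ± 0.13 SE, adjusted p = 9.4e-07).

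**Figure D3:**
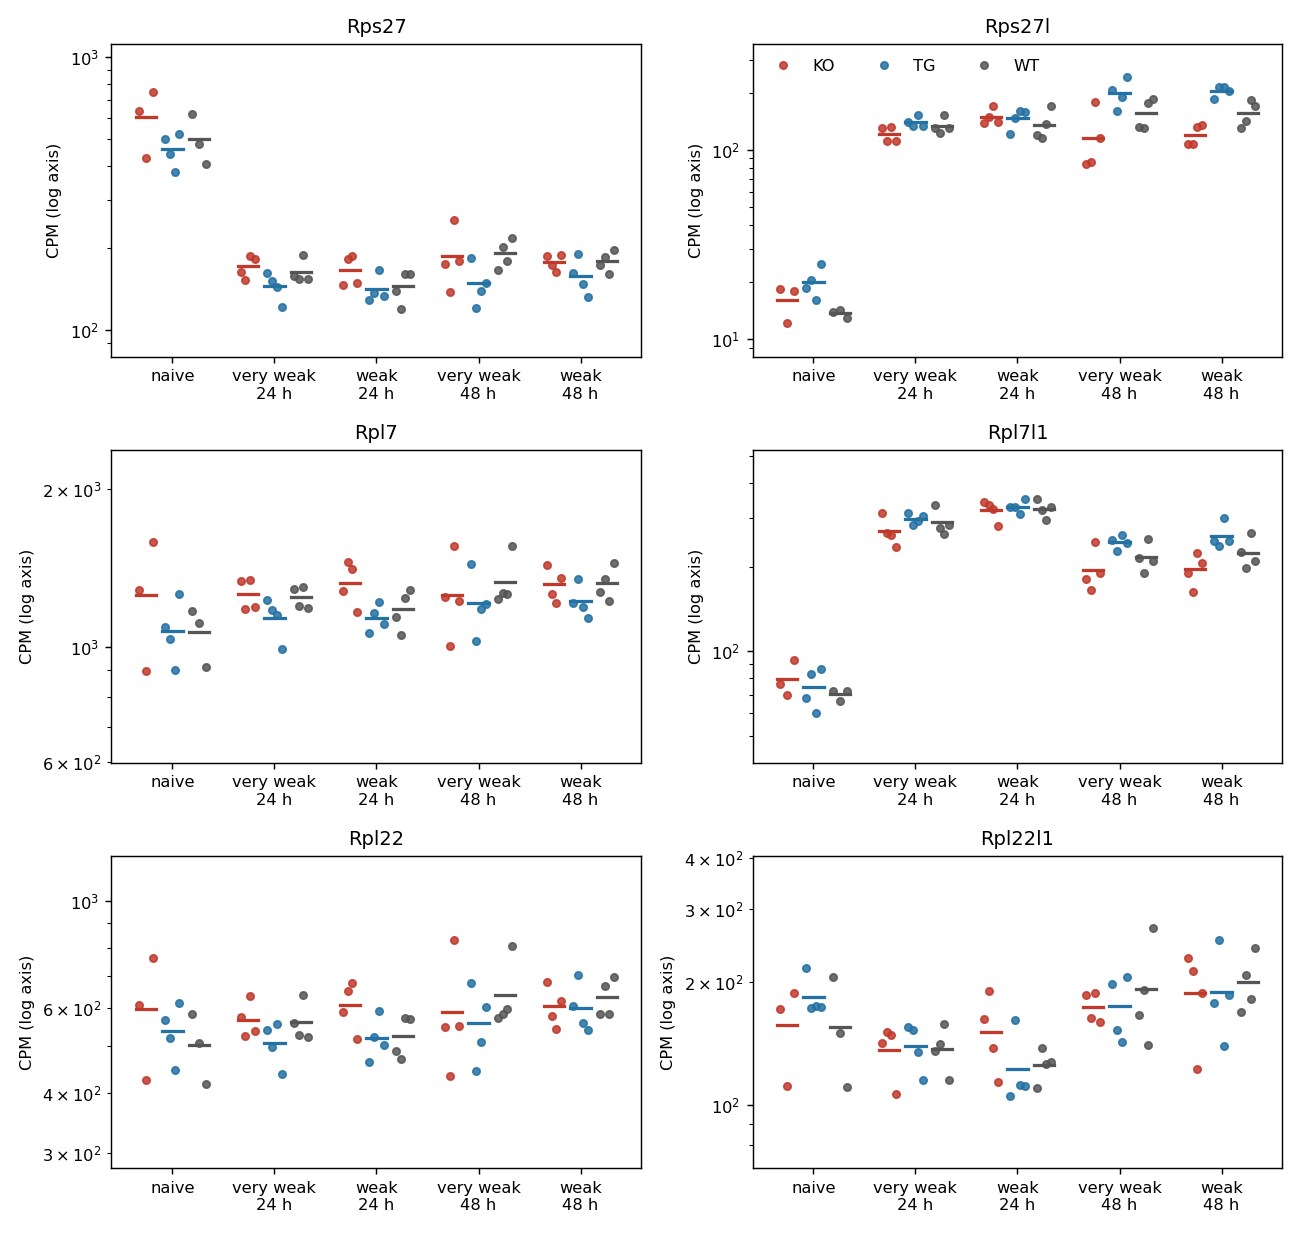
CPM on log axes of 3 paralogue pairs (Rps27 and Rps27l, Rpl7 and Rpl7l1, Rpl22 and Rpl22l1) for each library (points) and as group means (lines), by state and genotype. Rps27 lies lower and Rps27l higher in every stimulated library than in every naive one, Rpl7l1 lies higher while Rpl7 overlaps, and both members of the Rpl22 pair overlap between naive and stimulated cells.

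The other pairs moved less or stayed near the lower limit of detection. Rpl22, needed for the development of αβ T cells in mice, and Rpl22l1, whose expression Rpl22 is known to restrain in mice, were not called on stimulation in WT cells (log2 0.21 ± 0.14 SE, adjusted p = 0.173 for Rpl22, and 0.03 ± 0.18 SE, adjusted p = 0.889 for Rpl22l1). Rpl22l1 per kilobase stood at 159 ± 23.4% of Rpl22 in naive WT cells (SD, n = 3). In WT cells it stood at 128 ± 10% after the very weak and 126 ± 18.4% after the weak stimulus at 24 h, and at 155 ± 23.8% and 165 ± 12.7% at 48 h (n = 4 each). Rpl3 and Rpl10 were called slightly higher in stimulated WT cells (log2 0.21 ± 0.09 SE, adjusted p = 0.0308 for Rpl3, and 0.22 ± 0.10 SE, adjusted p = 0.0349 for Rpl10), and both calls were lost with another size factor (0.17 and 0.18), without WT naive replicate 2 (0.15 and 0.20) and without WT naive replicate 4 (0.11 and 0.07). Rpl3l and Rpl10l had a median of 0 CPM and did not pass the filter. Rps4x fell in KO cells (log2 -0.33 ± 0.11 SE, adjusted p = 0.00661), a value that shrank to -0.023 without KO naive replicate 4. It fell in TG cells too (log2 -0.28 ± 0.10 SE, adjusted p = 0.00886), a call that was lost without TG naive replicate 4 and without the low-count filter (-0.22 in both). Its pseudogene-annotated relative Rps4l had 1.91 to 6.26 CPM (median 3.34) in stimulated and 1.18, 1.95 and 1.49 CPM in naive WT libraries and rose in KO (log2 1.67 ± 0.26 SE, adjusted p = 8.7e-08), TG (log2 1.27 ± 0.22 SE, adjusted p = 1.2e-06) and WT cells (log2 1.11 ± 0.25 SE, adjusted p = 7.1e-05). Rpl39l, near 1 CPM, rose in KO (log2 1.37 ± 0.33 SE, adjusted p = 0.0002) and WT cells (log2 0.99 ± 0.31 SE, adjusted p = 0.0036), and the WT call was lost without WT naive replicate 4 (log2 0.62), while Rpl39 fell in KO (log2 -0.51 ± 0.15 SE, adjusted p = 0.00206) and TG cells (log2 -0.38 ± 0.13 SE, adjusted p = 0.00869). The Rpl39 call in KO was lost without KO naive replicate 4 (log2 -0.27).

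In naive WT cells the highest levels per kilobase of exon belonged to Rplp1 (4220 ± 281 CPM per kb, SD, n = 3), Rps15 (2937 ± 257), Rpl32 (2731 ± 350), Rpl8 (2464 ± 166) and Rplp0 (2459 ± 174), so that 2 of the 5 are proteins of the P stalk, which recruits translation factors. Their ranges overlapped between neighbours in this order from Rps15 down. The order depends on the gene lengths deposited with the counts, such as 468 bases for Rplp1, 4239 for Rps3 and 4384 for Rps24. By CPM alone, Rps3 had a median of 2250 over all libraries, above the 1854 of Rpl8. Of the 85 members, 72 had a median above 100 CPM over all libraries. A few rows were far lower. Rpl28 had a median of 2.89 CPM, Rps23 of 4.17 CPM and Rpl38 of 16.9 CPM, and these 3 had more intronic than exonic counts in total. Ribosomal protein genes have many near-identical processed copies, and how reads that match several copies were counted is not given in the sources used here. The levels of such rows are therefore uncertain. The table also holds 6 pseudogene rows outside the rule, of which Rpl14-ps1 (mean 1109.8 CPM), Rplp2-ps1 (629.8 CPM) and Rps19-ps3 (211 CPM) were high. Rpl32l, which has no intron in the annotation, was counted at a median of 46.3 CPM.

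Over the second day of culture, more ribosomal protein genes rose than fell in WT cells. At 48 h 18 members were higher and 2 lower than at 24 h (8 libraries each), where 28.6% of all genes were called higher, 26% lower and 54.6% in either direction, and the median member change was 0.12 against 0.01 for all genes. Weak and very weak WT libraries with the same replicate number deviated together (correlations of 0.36 to 0.58). The 8 libraries of a time, and the stimulated WT libraries above, are therefore fewer independent samples than their number. Rpl22l1 had 166, 190.5, 140.2 and 270.1 CPM after the very weak and 168, 208, 181 and 241 CPM after the weak stimulus at 48 h, against 136, 141, 158 and 116 and 110.4, 138, 126 and 128 CPM at 24 h. The 48 h libraries were mostly the higher ones, with overlap, and the log2 change was 0.56 ± 0.14 (SE, adjusted p = 0.00101). Rpl39 (log2 0.48 ± 0.12 SE, adjusted p = 0.00104), Rpl36a (log2 0.38 ± 0.12 SE, adjusted p = 0.00806), Rpl13a, which in human cells is also a part of an interferon-γ-activated translation inhibitor (log2 0.37 ± 0.10 SE, adjusted p = 0.00184) and the lowly counted Rps4l (log2 0.45 ± 0.17 SE, adjusted p = 0.0261) followed. The Rps4l call was lost without WT weak 24 h replicate 4 (log2 0.39) or WT very weak 24 h replicate 4 (0.37). It was also lost without WT very weak 48 h replicate 2 (0.34), with replicates 1 and 2 alone (0.43) and with replicates 3 and 4 alone (0.52). The Rpl13a call was lost with replicates 3 and 4 alone (0.32). Of the 18 risers, 14 were large-subunit genes, of 50 tested, and 4 were small-subunit genes, of 33 tested. The subunits did not differ in this way by their medians, which were 0.12 in large-subunit and 0.14 in small-subunit genes. Rpl7l1 went against the rest, with 191 to 264 CPM (median 213) at 48 h and 263 to 349.6 CPM (median 308) at 24 h (log2 -0.49 ± 0.09 SE, adjusted p = 4.9e-06). The lower of its 2 states still lay above all naive libraries. The count of 20 calls fell to 11 without WT weak 24 h replicate 2 or WT very weak 48 h replicate 4, to 12 without WT very weak 24 h replicate 2, and to 13 without WT weak 48 h replicate 4 or WT very weak 24 h replicate 4. The weak and the very weak stimulus gave 0 called members, 0 of all genes (0%) and 0 members at an unadjusted p under 0.05 by edgeR, and 0 members by DESeq2. Of 83 members, 80 lay slightly lower after the weak stimulus, with a median of -0.07.

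Few members differed between the genotypes. Between KO and WT naive cells edgeR called 0 members (7 at an unadjusted p under 0.05, and 0 by DESeq2) and 0.0365% of all genes, 0.0146% higher and 0.0219% lower. The members' median was nevertheless 0.25 higher in KO cells on the log2 scale, with 79 of 83 positive, and this value was 0.05 without KO naive replicate 4, 0.44 without KO naive replicate 2 and 0.14 without WT naive replicate 4. Between TG and WT naive cells 0 members were called (3 unadjusted, and 1 by DESeq2, against 7.83% of all genes, 4.33% higher and 3.5% lower), with a median of -0.07. That median was -0.14 without TG naive replicate 4, -0.01 without TG naive replicate 3, 0.06 without WT naive replicate 1 and -0.17 without WT naive replicate 4. Leaving out TG naive replicate 3 gave 1 call. At 24 h, KO and WT cells differed in 0 members (1 unadjusted, 0 by DESeq2) against 7.63% of all genes, 4.14% higher and 3.49% lower. TG and WT cells differed in 1, which was lower, against 14.9% of all genes, 7.22% higher and 7.69% lower. This was Rps3a1, a small-subunit protein, with 760.2, 698, 732 and 649 CPM after the very weak and 651, 673, 757 and 708 CPM after the weak stimulus in TG cells, against 862, 829, 992 and 843 and 760.5, 793, 902 and 877 CPM in WT cells. All 8 TG libraries lay below all 8 WT libraries, though the highest TG library came close to the lowest WT one, and the log2 difference was -0.28 ± 0.09 (SE, adjusted p = 0.0319). The call was lost without any one of 7 of the 16 libraries, with differences of -0.25 to -0.27.

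At 48 h the 2 altered genotypes moved Rps27l to opposite sides of WT. Rps27l had 84.5, 85.8, 178 and 116 CPM after the very weak and 107, 108, 133 and 135 CPM after the weak stimulus in KO cells, 208, 160.4, 189.6 and 242 and 185, 215, 216 and 204 CPM in TG cells, and 132, 131, 177 and 185 and 131, 142, 183 and 170.1 CPM in WT cells. Of the 8 KO libraries 5 lay below every WT library, and of the 8 TG libraries 7 lay above every WT library. KO replicate 3 after the very weak stimulus lay high among the WT libraries. The log2 difference was -0.40 ± 0.12 (SE, adjusted p = 0.0101) between KO and WT and 0.38 ± 0.12 (SE, adjusted p = 0.0108) between TG and WT cells, and the WT libraries are shared by both comparisons. The KO call was lost with replicates 3 and 4 alone (-0.36), with counts summed over both strengths (-0.42, adjusted p = 0.0532) and with only the compared groups in the edgeR fit (-0.40), and the TG call with replicates 3 and 4 alone (0.26). Relative to Rps27 per kilobase it stood at 84.1 ± 12.9% in KO, 163 ± 26.6% in TG and 109 ± 21.8% in WT cells after the weak stimulus (SD, n = 4 each), and at 75.9 ± 11.5%, 168 ± 25% and 102 ± 17.6% after the very weak one. At 24 h the differences were -0.02 ± 0.12 (SE, adjusted p = 0.954) for KO and 0.09 ± 0.12 (SE, adjusted p = 0.688) for TG cells. The change of the genotype difference between 24 h and 48 h was not called for Rps27l (log2 -0.38 ± 0.16 SE, adjusted p = 0.374 in KO, and 0.29 ± 0.16 SE, adjusted p = 0.483 in TG cells).

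The KO comparison at 48 h called 2 members, 1 higher and 1 lower, against 19.5% of all genes, 10.8% higher and 8.64% lower. The higher one was Rps4l (log2 0.46 ± 0.17 SE, adjusted p = 0.0476), with 4.09 to 9.38 CPM (median 4.66) in KO and 2.61 to 6.26 CPM (median 3.85) in WT cells, and this call was lost without any one of 10 of the 16 libraries. Without KO very weak replicate 3 the count was 0 higher and 4 lower. The TG comparison at 48 h called 1 higher and 5 lower, against 26.1% of all genes, 12.1% higher and 14% lower, with a median of -0.14 and 77 of 83 members on the negative side. Rps20 had 970.2, 676, 819 and 859 CPM after the very weak and 901, 889, 812 and 769 CPM after the weak stimulus in TG cells, against 1027, 1017, 1021 and 1331 and 1015, 1092, 919 and 1156 CPM in WT cells. Only 1 TG library lay above the lowest WT library, and the difference was -0.35 ± 0.10 (SE, adjusted p = 0.00808). Rps18 (log2 -0.30 ± 0.10 SE, adjusted p = 0.0197), Rpl17 (log2 -0.30 ± 0.10 SE, adjusted p = 0.0166), Rps3a1 (log2 -0.26 ± 0.09 SE, adjusted p = 0.0354) and Rpl10a (log2 -0.22 ± 0.07 SE, adjusted p = 0.0259) were the other 4. Weak and very weak libraries with the same replicate number deviated together, so the 8 libraries of a genotype are fewer independent samples than their number. With the counts of both strengths summed per number, 1 member was higher and 2 were lower, with Rps18 (-0.29) and Rps3a1 (-0.25) among the calls lost. Replicates 1 and 2 alone gave 1 higher and 0 lower, replicates 3 and 4 alone 0 higher and 4 lower. The count was 3 without TG weak replicate 4 or WT very weak replicate 4, and 11 without TG very weak replicate 1. The response to stimulation itself differed between KO and WT cells in 0 members (5 unadjusted) and 0.168% of all genes (0.131% higher, 0.0365% lower), and between TG and WT cells in 0 members (1 unadjusted) and 6.18% of all genes, 2.55% higher and 3.63% lower. The members' median difference in response was -0.24 for KO and -0.04 for TG, and both share their naive libraries with the values above. The KO value was -0.05 without KO naive replicate 4, -0.43 without KO naive replicate 2 and -0.13 without WT naive replicate 4. The TG value changed sign, to 0.07 without WT naive replicate 4 and 0.04 without TG naive replicate 4, and was -0.16 without WT naive replicate 1. The genotype difference changed between 24 h and 48 h in 0 members for KO (2 unadjusted, against 0.781% of all genes, 0.562% higher and 0.219% lower) and 0 for TG (0 unadjusted, against 1.85%, 0.62% higher and 1.23% lower). DESeq2 called 0 in each of these 4 tests.

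Intronic counts, which come mostly from RNA that is not yet spliced, gave a different picture from exonic counts. Members took 0.496% to 1.08% of all intronic counts in stimulated and 0.275% to 0.599% in naive libraries. With intronic counts scaled to the intronic library size, 63 of 80 members with enough intronic counts were higher and 4 lower in stimulated WT cells (35.1% and 35.9% of 11350 genes, 71% in either direction), with a median of 0.94 against -0.01 for all genes, but scaled to the full library size 12 were higher and 46 lower, with a median of -0.41 against -1.36 for all genes. Their exonic counts changed by a median of -0.11. The exonic minus the intronic change, on the intronic library size, was called higher in 4 and lower in 59 members (24.7% and 23.7% of all genes, 48.3% in either direction), with a median of -0.95 against -0.03 for all genes, and on the full library size it was higher in 36 and lower in 12, with a median of 0.40 against 1.33. Intronic counts were 12.4% to 18.4% of all counts in stimulated and 22.6% to 30.7% in naive libraries. The members' median intronic change lay about 1 log2 unit above that of all genes. A change of scale shifts all genes by nearly the same amount, so this gap could not differ much between the scales. Many of these genes host small nucleolar RNAs in their introns. The 30 members with a small nucleolar RNA gene inside their span had a median intronic change of 0.97 (25 higher, 1 lower, intronic scaling) and the 50 without one of 0.89 (38 higher, 3 lower).

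Among single genes, Rps24 had 24.8 ± 5.20 intronic CPM (intronic counts scaled to the library's intronic total, SD, n = 4) 24 h after the weak stimulus and 5.69 ± 1.84 in naive WT cells (n = 3), and an exonic minus intronic change of -2.98 ± 0.30 (SE, adjusted p = 4.5e-14). Rps19, a gene mutated in Diamond-Blackfan anaemia in humans, had 147 ± 32.8 and 47.1 ± 7.85 intronic CPM on that scale in the same 2 groups (-2.56 ± 0.24 SE, adjusted p = 9.2e-16). Rps15a (-2.53 ± 0.21 SE, adjusted p = 1.5e-18) followed, one of the genes whose exonic counts fell without overlap between stimulated and naive WT cells. For Rps27 the intronic change was -1.78 on the intronic library size and -3.15 on the full library size, beside an exonic change of -1.59. On the intronic library size the difference of 0.19 ± 0.22 (SE, adjusted p = 0.482) was not called. Rps27l (2.03 ± 0.36 SE, adjusted p = 1.3e-06), Rps2 (0.98 ± 0.23 SE, adjusted p = 0.0002), Rpl7l1 (0.78 ± 0.21 SE, adjusted p = 0.00167) and Rps13 (0.63 ± 0.21 SE, adjusted p = 0.00765) were the 4 called with an exonic change above the intronic one on this scale. Rps27l and Rpl7l1 rose in both counts. Rps13 fell in both, less in exonic (log2 -0.44) than in intronic counts (log2 -1.08). Rps2 had 41.6 ± 4.03 CPM of the intronic total 24 h after the weak stimulus and 55.0 ± 5.71 in naive WT cells. The other stimulated WT groups had means of 48.4 (very weak, 24 h), 45.95 (weak, 48 h) and 56.1 (very weak, 48 h). The fitted intronic change of Rps2 over all stimulated WT groups was not called (log2 0.07, adjusted p = 0.711 by edgeR). The calls of Rpl7l1 and Rps13 were lost without WT naive replicate 4 (0.60 and 0.30).

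**Figure D4:**
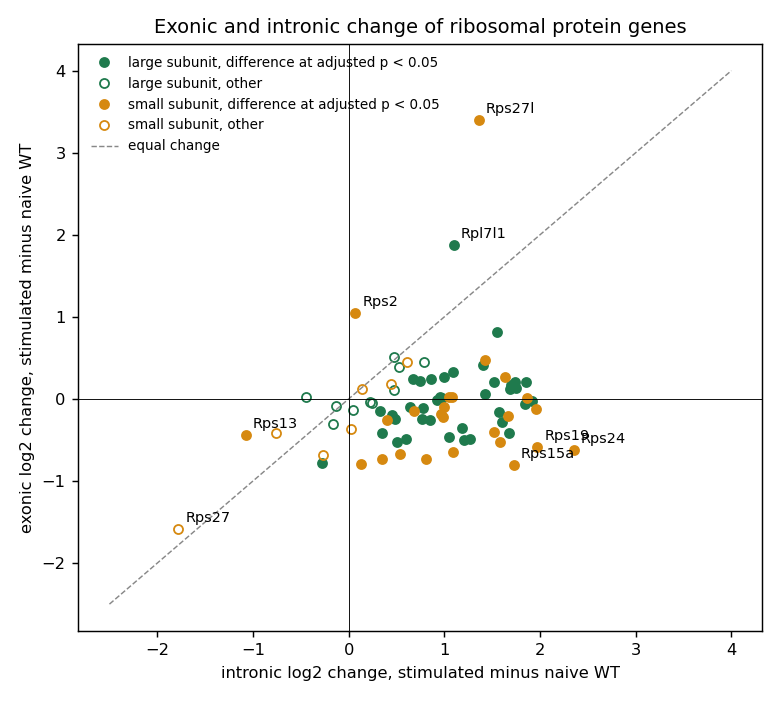
Exonic against intronic log2 change between stimulated and naive WT cells for 80 ribosomal protein genes (points; filled where the 2 changes differ at adjusted p < 0.05), with intronic counts scaled to the intronic library size; the dashed line marks equal change. Most members lie below the line, Rps27 lies near it with both changes negative, and Rps27l lies well above it. On the full library size all intronic changes shift down, by a median of -1.36 over all genes.

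Most genes of the other translation lists were higher on stimulation, beside the 39.3% of all genes and the 18 of 83 members that were. In WT cells, among 13 subunits of initiation factor 3, 10 were higher and 1 lower, with a median of 0.97, led by Eif3l (1.5, adjusted p = 4.2e-24) and Eif3b (1.63, adjusted p = 1.7e-20), while Eif3f was lower (-0.35, adjusted p = 0.00904). Genes that ran against their list, such as this one, were chosen after their values were seen. Of 17 other initiation factors 15 were higher and 1 lower, with a median of 1.57. They included Eif1ax (1.96, adjusted p = 1e-19), the cap-binding protein Eif4e (1.90, adjusted p = 3.6e-19) and Eif1a (2.0, adjusted p = 2.2e-18), and Eif1 was lower (-0.37, adjusted p = 0.00094). Of 7 genes listed as elongation factors 6 were higher and 1 lower, with a median of 0.87. Eif5a (2.49, adjusted p = 1.9e-24) and Eef1e1, which is in this list by its symbol (1.94, adjusted p = 8.9e-12), were higher, while Eef1a1, which delivers aminoacyl-tRNA, was lower (-0.44, adjusted p = 0.0004). Of the 13 measured chaperones and assembly factors of ribosomal proteins 12 were higher and 0 lower, with a median of 1.26, led by the import receptor Ipo5 (2.69, adjusted p = 2.8e-30) and by Heatr3 (1.70, adjusted p = 3.7e-18), which handles Rpl5.

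Of 13 other mRNAs that begin with a TOP tract, 10 were higher and 3 lower, with a median of 0.56. Npm1 (2.32, adjusted p = 9.9e-19) and Nap1l1 (2.23, adjusted p = 5.7e-21) were higher and Tpt1 was lower (-1.34, adjusted p = 9.3e-18), so this list did not move in 1 direction. Of 15 genes for mTORC1 and the control of ribosomal protein mRNA, 8 were higher and 2 lower, with a median of 0.24. Larp1 (1.30, adjusted p = 2.8e-16) and the translation repressor Eif4ebp1 (3.55, adjusted p = 1.3e-12) were higher, and the S6 kinase Rps6kb2 (-0.98, adjusted p = 3.5e-11) was lower. Of 4 genes outside the symbol rule, 1 was higher and 2 were lower, with a median of -0.31. Fau (-0.68, adjusted p = 1.5e-06), which encodes a ribosomal protein fused to a ubiquitin-like protein, was lower, Rpl36al was higher (0.44, adjusted p = 0.00374), and Rack1, a scaffold protein on the small subunit, was not called (0.04, adjusted p = 0.734). At 48 h against 24 h in WT cells, 1 gene of the assembly list was higher and 9 were lower of 13, with a median of -0.53, beside 28.6% of all genes higher and 26% lower and the members' median of 0.12.

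At 48 h, 8 of the 17 other initiation factors were higher and 0 lower in TG than in WT cells, and 0 higher and 4 lower in KO than in WT cells, with medians of 0.21 in TG and -0.17 in KO cells, beside 12.1% of all genes higher and 14% lower in TG, and 10.8% higher and 8.64% lower in KO cells. For the assembly list the counts were 4 higher and 0 lower in TG, and 0 higher and 4 lower in KO cells. Eif2b1, a subunit of the exchange factor of initiation factor 2, was lower in KO (-0.32, adjusted p = 0.00473) and higher in TG cells (0.43, adjusted p = 7.4e-05), and so was Ipo5 (KO -0.21, adjusted p = 0.00793, and TG 0.24, adjusted p = 0.00179). Both comparisons use the same WT libraries. In these same comparisons the members' medians were -0.04 in KO and -0.14 in TG cells. The KO median was 0.02 without KO very weak replicate 2 and -0.11 without KO very weak replicate 3, so its sign depended on single libraries, while the TG median lay between -0.10 and -0.18 without any 1 library.

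**Figure D5:**
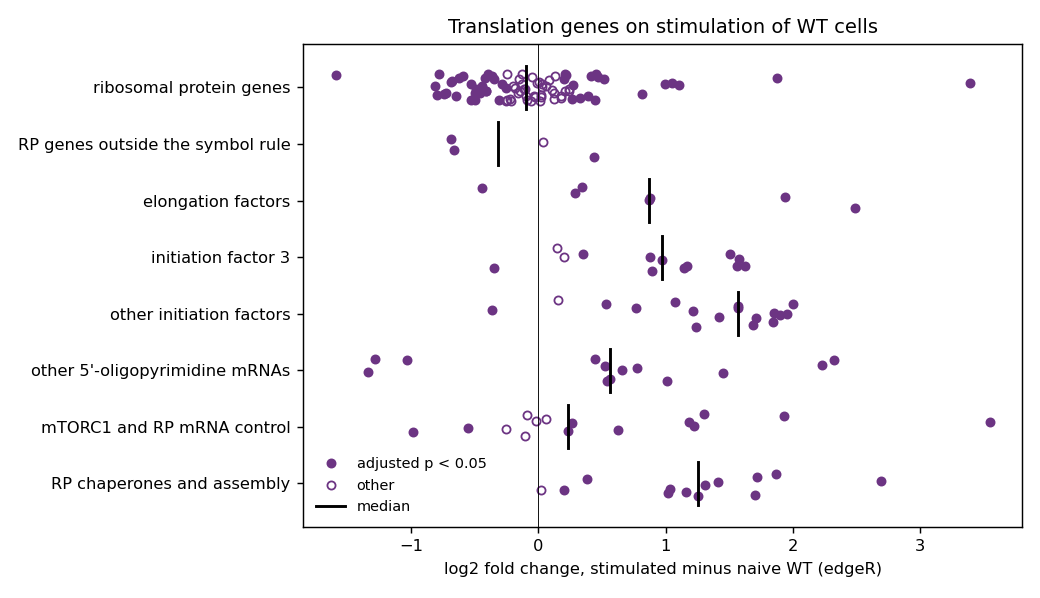
Log2 fold change between stimulated and naive WT cells for the 83 ribosomal protein genes and 7 related lists (points, one per gene; filled at adjusted p < 0.05; lines mark medians). The medians of initiation factors (0.97 and 1.57) and of chaperones and assembly factors (1.26) lie to the right of that of the ribosomal protein genes (-0.10).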

How the data were processed

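Per the labels' protocols, libraries were made from polyadenylated RNA with a TruSeq kit that keeps strand, and reads were single-end with 76 bases. The authors deposited raw counts for each gene, exonic in one table and intronic in another, and the values are whole numbers with unequal totals. Tools in the submitters' processing notes are STAR 2.5.2a, edgeR 3.24.3, R 3.5 and FastQC 0.11.5, and the build is mm10. How reads were counted, with which annotation and strand setting, and what became of reads with several matches is not given in the sources used here. Of 24028 gene IDs, 23968 matched a RefSeq symbol.

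All 58 libraries entered 1 fit with a coefficient per group, in edgeR 4.0.16 (R 4.3.3) with TMM factors of 0.939 to 1.06. The filterByExpr filter kept 13709 genes, 83 of the 85 members among them. P-values are from the quasi-likelihood F test, two-sided, with Benjamini-Hochberg adjustment over all tested genes, and a call is an adjusted p under 0.05. Contrasts average the groups of a state equally. Exonic minus intronic changes came from 1 edgeR fit of both tables, with a coefficient per group and region, for 11350 genes of which 80 are members. CPM is the exonic count scaled to the library's exonic total, and CPM per kilobase divides it by the gene length deposited with the exonic counts. The ratios of paralogues per kilobase rest on these lengths too, such as 477 bases for Rpl22l1 and 2497 bases for Rpl22. Reads carry no molecular identifiers. The edgeR fit was tested on simulated counts.

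Replicate numbers paired the libraries of both altered genotypes with WT at 24 h and at 48 h, and weak with very weak libraries: the lowest correlation of a pair's deviations from the group means was 0.172. Replicate 4 at 48 h was less clear. It correlated more with a WT replicate of another number, at 0.609 against 0.294 in KO and 0.336 against 0.172 in TG cells. The other comparisons checked were not taken as paired, since their lowest correlation was 0.088 or less. That value belonged to 48 h against 24 h in WT cells, where each replicate still correlated most with its own number. The differences in response and the change of genotype differences over time were not checked for pairing. The alternatives were no low-count filter, other size factors, DESeq2 1.42.0, a replicate block, subsets of libraries, summed counts and each library left out.

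The members, lists and tests were chosen with earlier results of these data known. Members were named if they form a paralogue pair, if they were among the 4 largest called rises or falls of a comparison with a mean of at least 5 CPM, or if they were among the 5 highest per kilobase. Other genes were named as the 3 smallest adjusted p-values of their list. Some genes that these rules select are not reported here.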

Additional observations from a re-analysis of the deposited data

Results flagged for a closer look

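Of 117 group values of named members that were examined, 7 held 1 library far from the rest of its group. Chance gives about 1 in 20. Rps27 had 188.05 CPM in WT very weak 24 h replicate 3, against 154.55 to 158.32 CPM in the other 3 libraries. In WT very weak 48 h replicate 4, Rpl7 had 1558 CPM, against 1231.1 to 1263.5 CPM in its group, and Rpl22 had 806.05 CPM, against 571.82 to 595.87 CPM. Rpl7l1 had 300.77 CPM in TG weak 48 h replicate 3, against 238.79 to 247.51 CPM. Rpl22l1 was high in TG naive replicate 1, with 215.61 CPM against 172.28 to 174.47 CPM, and in TG weak 24 h replicate 2, with 161.62 CPM against 105.41 to 112.36 CPM. Rps2 was low in WT very weak 24 h replicate 2, with 439.09 CPM against 469.92 to 475.24 CPM.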

How the results depend on the processing

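No called fold change of a named member changed sign under any alternative run. The counts of called members in the 3 stimulation comparisons, between exonic and intronic change, and of the comparisons with 0 calls stayed within 1.5 times under the alternatives other than leaving out 1 library, apart from TG against WT in naive cells, where DESeq2 gave 1 call. For exonic minus intronic change, only the total of both directions held when the scaling changed. On the full library size 36 members were higher and 12 lower, against 4 and 59 on the intronic library size. The median went from -0.95 to 0.40. For KO against WT at 48 h (2 calls) the count was 1 without the low-count filter, with TMM factors made without the members and with replicates 1 and 2 alone, and 0 with replicates 3 and 4 alone, with counts summed over both strengths and with only the compared groups in the fit. For TG against WT at 24 h (1 call) it was 0 with either pair of replicates and with summed counts, and 4 with only the compared groups. For TG against WT at 48 h (6 calls) it was 1 with replicates 1 and 2 alone, 3 with summed counts and 11 with only the compared groups. For 48 h against 24 h in WT (20 calls) it was 4 with replicates 3 and 4 alone. The cause was not tested, but the subsets and sums hold fewer libraries.

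With 1 library left out at a time, the counts ran from 39 to 68 for stimulation in KO, 48 to 52 in TG and 39 to 46 in WT cells. They ran from 0 to 0 for KO and 0 to 1 for TG against WT in naive cells (1 without TG naive replicate 3), and at 24 h from 0 to 0 for KO and 0 to 1 for TG. At 48 h they ran from 1 to 4 for KO and 3 to 11 for TG. They were 11 to 22 for 48 h against 24 h, 0 to 0 for weak against very weak, 0 to 0 for both differences in response, 0 to 1 for KO (1 without KO very weak 48 h replicate 3) and 0 to 0 for TG in the change of the genotype difference over time, and 52 to 65 for exonic minus intronic change.

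With the replicate number as a block, the counts were 54 for stimulation in KO, 52 in TG and 47 in WT cells, 3 for KO and 9 for TG against WT at 48 h, 1 for TG at 24 h, 23 for 48 h against 24 h, 63 for exonic minus intronic change and 0 elsewhere. The block ended no call of a named member. Of the called fold changes of named members recomputed under the alternatives, 41 values lost their call with 1 library left out (1012 kept it) and 29 under the others (374 kept it), more than any other member for Rps4l and Rps3a1. The share of counts from members moved by more than 1 SD in 29 of 45 group values when intronic counts joined the total, pseudogene rows were added or the 5 most counted members were left out. At 19197383 counts or more per library, members under 5 CPM were the ones limited by depth.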
